A study of Mus musculus with 12 samples.

Results

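The colony-stimulating factor genes described here are 8 of the 36491 genes in the deposited count table: the ligands Csf1, Il34 and Csf3 and the receptor chains Csf1r, Csf2ra, Csf2rb, Csf2rb2 and Csf3r. They were selected by gene symbol, with earlier results of these data known, and all 8 passed the low-count filter that left 18875 genes for testing. The RNA came from brain cells of adult male C57BL/6J wild-type mice, aged 6 months, pulled out with magnetic beads against CD11b, an integrin that microglia share with monocytes, neutrophils and other macrophages; the labels call the sorted cells microglia. All mice had received a bone marrow transplant, with a head shield in the shielded groups (titled hc) and without one in the unshielded groups (titled wbi). All of them then ate PLX5622, a CSF1R kinase inhibitor that depletes microglia, for 2 weeks and standard chow for the next 6 weeks. Lipopolysaccharide (LPS, a bacterial cell wall component; 50 µg) or saline was injected intraperitoneally, and cells were sorted 6 hours later. The 4 groups were shielded and unshielded mice, each without LPS or after LPS, with 3 libraries per group. Transplant and inhibitor were thus common to every group, controls included, and the levels are those of cells that had recovered from CSF1R inhibition.

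Colony-stimulating factors are secreted proteins that keep myeloid cells alive and direct their growth. CSF1 and IL-34 both bind CSF1R, a receptor tyrosine kinase on which microglia depend, and in brain IL-34 is made chiefly by neurons. GM-CSF and G-CSF act through cytokine receptors without a kinase of their own: GM-CSF through the alpha chain CSF2RA and the common beta chain CSF2RB, and G-CSF through CSF3R. The mouse has a second beta chain gene, Csf2rb2, whose product is best known as a partner of the interleukin-3 receptor.

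Depth was 18090977 to 60495968 counts a library and was greatest in unshielded LPS mice. Shielded libraries 2 and 3 titled as given no LPS carry LPS in their treatment field. Over 10 LPS-response genes the mean log2 CPM (a gene's counts scaled to the library's TMM-adjusted total) was 2.94 to 4.51 in libraries titled without LPS and 7.34 to 8.66 in LPS libraries, a gap of 2.83 in which neither of these libraries fell. Groups were taken from the titles and not from these values, and results that change without these libraries are given with both values. Unshielded library 3 without LPS was the highest of those without LPS, at 4.51. The sorted cells carried microglial markers in every library: Tmem119 lay between 929 and 2104 CPM and P2ry12 between 309 and 2718 CPM. The summed level of 12 microglial markers was 24017 to 28885 CPM in shielded mice without LPS, 17130 to 18555 in shielded mice after LPS, 11315 to 15089 in unshielded mice without LPS and 8537 to 10190 in unshielded mice after LPS. Macrophages that enter the brain from marrow are marked by Apoe and Ms4a7, among others. The summed level of 12 such markers was 6882 to 24090 CPM and 3319 to 5309 CPM in shielded mice without and with LPS, against 58648 to 89148 CPM and 81623 to 107127 CPM in unshielded mice. Apoe made up most of these sums, at 6511 to 23553 CPM and 2431 to 4205 CPM in shielded mice without and with LPS. In unshielded mice Apoe was at 57349 to 87499 CPM and 78455 to 103117 CPM. With LPS, 4 of the 12 rose and 7 fell in shielded mice, beside 32.4% and 35.1% of all genes. In unshielded mice 6 rose and 1 fell, beside 24.3% and 18.8%. Without the shield 11 of the 12 markers were higher before LPS and 10 after it, and 0 were lower. Of all genes, 3.98% were higher and 6.85% lower before LPS, and 19.1% and 25.6% after it. In these bulk samples, fewer cells of a type and less RNA per cell cannot be told apart.

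After LPS, the ligand genes Csf1 and Csf3 and both beta chain genes rose, with and without the shield. Without the shield, Csf1 was lower than with it, before and after LPS. Csf1r was lower after LPS, and its call before LPS was lost in 9 of the 12 fits that left out 1 library. Csf3r was lower before LPS, a call lost in 3 of those 12 fits. In shielded mice LPS raised 4 of the 8 genes and lowered 1, at an edgeR adjusted p under 0.05, while 32.4% of all genes tested rose and 35.1% fell. In unshielded mice 4 of 8 rose and 0 fell, against 24.3% and 18.8% of all genes. The median log2 fold change of the 8 genes was 0.73 in shielded and 0.67 in unshielded mice, and that of all genes was -0.14 and -0.06. Unshielded against shielded mice without LPS, 0 of 8 were higher and 3 were lower, against 3.98% and 6.85% of all genes. After LPS, 1 was higher and 3 were lower, against 19.1% and 25.6% of all genes. The median log2 fold change of the 8 was 0.03 without LPS and -0.25 after LPS, beside -0.00 and 0.07 over all genes. The LPS effects and the shield effects share groups, so their calls are not independent of one another.

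**Figure D1:**
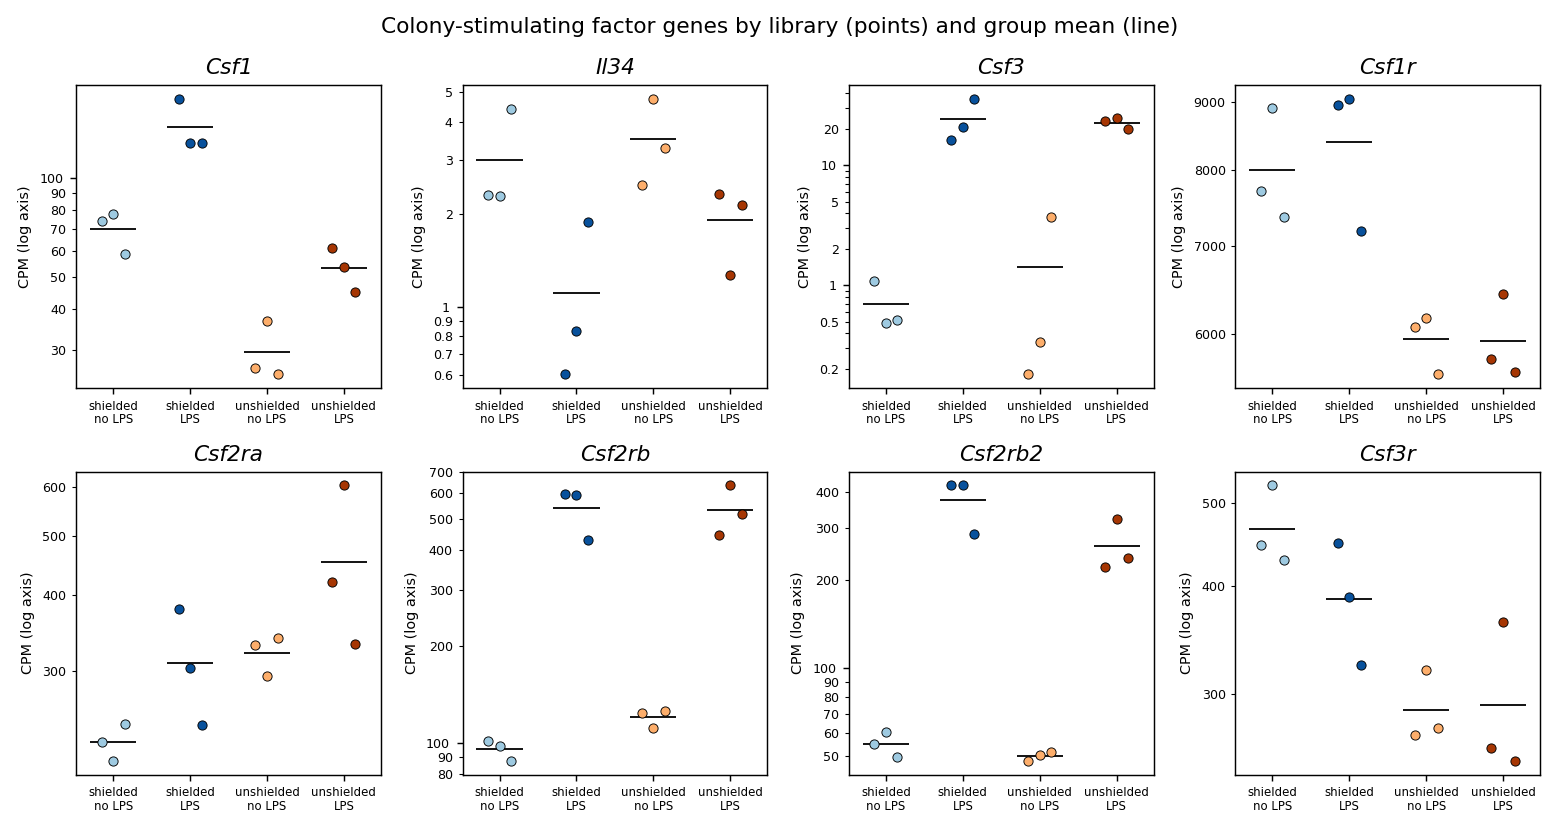
Each panel plots 1 gene, with the CPM of each of the 12 libraries as points on a log axis and the group mean as a line (3 libraries per group; axes differ between panels). Csf3, Csf2rb and Csf2rb2 separate by LPS, while Csf1r separates by shield and Csf1 by both.

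The difference between the LPS effects of unshielded and shielded mice passed the threshold for 0 of the 8 genes in edgeR, against 4.06% of all genes for a larger effect in unshielded mice and 9.25% for a smaller one. The count at an unadjusted p under 0.05 was also 0, and DESeq2 called 0. The differences ran from -1.11 ± 1.07 (SE) on the log2 scale for Csf3 to 0.58 ± 0.60 for Il34, so the interval around several of them is wide. Without shielded LPS library 3, the difference passed for Csf2rb (-0.55, edgeR adjusted p = 0.0328) and Csf2rb2 (-0.61, edgeR adjusted p = 0.0285), both in the direction of a smaller effect in unshielded mice.

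**Figure D2:**
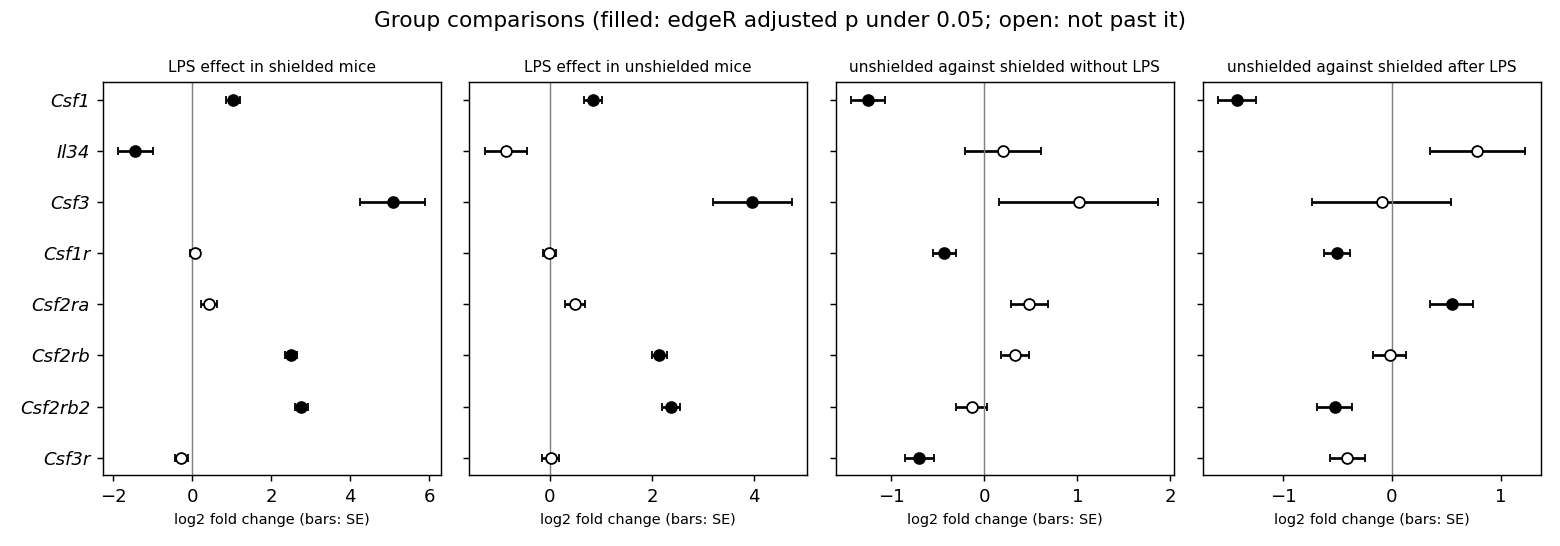
Points are log2 fold changes of the 8 genes in 4 comparisons, with bars of 1 SE, filled where the edgeR adjusted p is under 0.05; the horizontal scale differs between panels. The largest values are those of Csf3, Csf2rb and Csf2rb2 for LPS, and Csf1 is the gene furthest below 0 in both shield comparisons.

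Csf1 encodes CSF1, the growth factor of macrophages and microglia. It measured 73.9, 77.6 and 58.9 CPM in the libraries of shielded mice without LPS and 173.9, 127.8 and 127.5 CPM after LPS. In unshielded mice it measured 26.6, 36.8 and 25.4 CPM without LPS and 61.2, 53.8 and 45.2 CPM after LPS. Every LPS library was above every library without LPS of the same arm, and every unshielded library was below every shielded library of the same treatment. LPS raised Csf1 by 1.03 ± 0.18 on the log2 scale in shielded mice (SE; edgeR adjusted p = 0.000291) and by 0.86 ± 0.18 in unshielded mice (edgeR adjusted p = 0.00210). Without the shield it was 2.38-fold lower before LPS (log2 -1.25 ± 0.18, edgeR adjusted p = 0.000844) and 2.68-fold lower after LPS (log2 -1.42 ± 0.18, edgeR adjusted p = 6.06e-05). These 4 calls held in all 12 fits that left out 1 library. The mean of unshielded LPS mice, 53.4 ± 8.0 CPM (SD, n = 3), was under that of shielded mice without LPS, 70.1 ± 9.9 CPM. Beside this, 10 of the 12 microglial markers were also lower without the shield, both without and after LPS, and 0 were higher. Of all genes, 6.85% were lower and 3.98% higher without LPS, and 25.6% and 19.1% after it. The part of these markers in the Csf1 difference was not tested.

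The Csf1 promoter is shown because this gene rose with LPS in both arms. It is the RefSeq sequence of the GRCm38.p6 build at chr3:107760420-107760719 on the minus strand, from 250 bases before to 50 after the start, with the match to the NF-kB consensus in capitals.
Csf1 promoter: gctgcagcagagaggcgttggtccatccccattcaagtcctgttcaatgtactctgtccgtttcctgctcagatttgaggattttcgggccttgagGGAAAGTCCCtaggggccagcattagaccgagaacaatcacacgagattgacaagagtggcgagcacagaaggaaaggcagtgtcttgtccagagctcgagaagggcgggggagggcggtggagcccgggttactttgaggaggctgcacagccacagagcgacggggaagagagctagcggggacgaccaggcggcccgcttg
NF-kB is the transcription factor that Toll-like receptors activate, among others. The promoter held 1 match on either strand, starting at position -154, and 4.5% of the 32851 promoters of that length in the table hold at least 1. It held 0 matches to GAGGAA, the core bound by PU.1, a factor that defines myeloid cells, and 0 to TTCNNNGAA, the STAT element. A match describes the letters in this window and is not evidence of binding.

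Il34 encodes interleukin-34, the other ligand of CSF1R, and was the scarcest of the 8 genes after LPS, with 20 to 131 counts per LPS library. It measured 2.31, 2.29 and 4.40 CPM in shielded mice without LPS and 0.603, 0.831 and 1.89 CPM after LPS. Unshielded mice had 2.49, 4.77 and 3.29 CPM without LPS and 2.33, 1.27 and 2.14 CPM after LPS. LPS libraries were below those without LPS in both arms, with no overlap, and library 3 was the highest of each shielded group. Il34 fell by 1.44 ± 0.44 on the log2 scale in shielded mice (edgeR adjusted p = 0.0121). Its change in unshielded mice was -0.86 ± 0.41 (edgeR adjusted p = 0.113), and -0.83 in a fit of only the groups compared, where it passed (edgeR adjusted p = 0.0406). The call in shielded mice was lost on leaving out library 3 of the group without LPS (-1.04, edgeR adjusted p = 0.0634) or both libraries of conflicting label (-1.05, edgeR adjusted p = 0.151). Without shielded LPS library 3 it was -2.06 (edgeR adjusted p = 0.00101), and in that fit Il34 fell in unshielded mice (-0.88, edgeR adjusted p = 0.0410) and was higher without the shield after LPS (1.37, edgeR adjusted p = 0.0174, against 0.79 and 0.156 with all libraries).

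Neuronal RNA moved with Il34. Of 9 neuronal markers, 8 fell and 0 rose with LPS in shielded mice, and 0 passed in unshielded mice. Of all genes, 35.1% fell and 32.4% rose in shielded mice, and 18.8% and 24.3% in unshielded mice. The summed level of the 9 markers was 201 to 367 CPM in shielded mice without LPS, 35.9 to 177 after LPS, 299 to 345 in unshielded mice without LPS and 125 to 237 after LPS, and none of them was at 0 in a group. Rbfox3, a splicing factor of neurons, fell by 1.48 ± 0.38 on the log2 scale in shielded mice, and Snap25, a synaptic vesicle fusion protein, by 1.55 ± 0.45 (edgeR adjusted p = 0.00584 and 0.0108). The 3 genes whose pattern was most like that of Il34 over the 12 libraries, among 9232 genes, were Uchl1 (Pearson r = 0.980), Nrgn (0.979) and Arpp21 (0.977). In shielded mice LPS also lowered 8 of 8 oligodendrocyte markers and raised 0. Of 9 endothelial markers 6 fell and 1 rose there, and of 7 fibroblast and pericyte markers 3 fell and 0 rose. Astrocyte markers went both ways, with 2 of 9 rising and 3 falling. The part of neuronal or other non-myeloid RNA in the Il34 values was not tested.

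**Figure D3:**
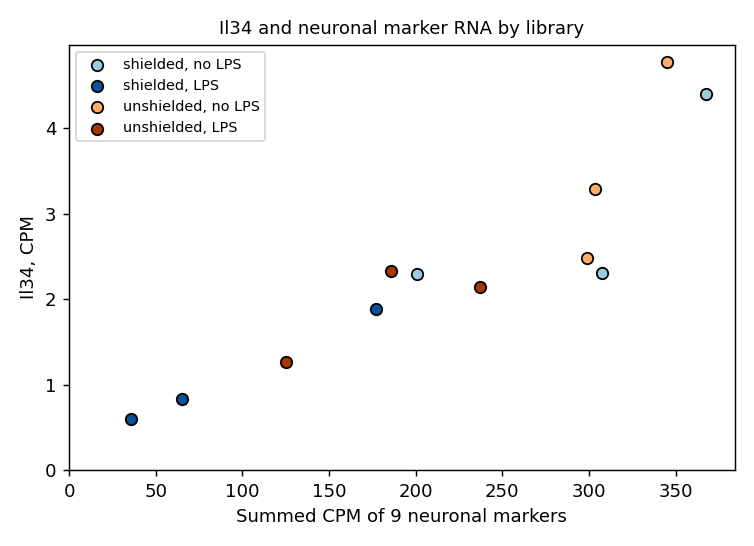
Each point is 1 of the 12 libraries, with the summed CPM of 9 neuronal markers on the horizontal axis and Il34 CPM on the vertical axis, coloured by group. The shielded LPS library with 35.9 CPM of marker RNA has the lowest Il34, 0.603 CPM, and the libraries with the most marker RNA, 345 and 367 CPM, have the highest, 4.77 and 4.40 CPM.

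Csf3 encodes G-CSF, which drives the production and release of neutrophils. It measured 1.10, 0.485 and 0.52 CPM in shielded mice without LPS and 16.2, 20.7 and 36.0 CPM after LPS. The unshielded values were 0.182, 0.337 and 3.72 CPM without LPS and 23.3, 24.8 and 20.1 CPM after LPS. All LPS libraries were above all libraries without LPS, and unshielded library 3 without LPS, which also stood highest in the LPS-response genes, was more than 3 times any other library without LPS. LPS raised Csf3 by 5.08 ± 0.82 on the log2 scale in shielded mice (edgeR adjusted p = 0.000287) and by 3.97 ± 0.77 in unshielded mice (edgeR adjusted p = 0.00176), the largest changes among the 8 genes. The second value was 6.54 (edgeR adjusted p = 1.04e-05) with library 3 of the group without LPS left out, and with library 1 left out it was 3.35 (edgeR adjusted p = 0.00323). Without the libraries of conflicting label, the value in shielded mice was 4.46 (edgeR adjusted p = 0.0289). Shielded and unshielded mice did not differ past the threshold without LPS (1.02 ± 0.86, edgeR adjusted p = 0.591), and this value turned to -1.59 without unshielded library 3. After LPS the difference was -0.10 ± 0.64 (edgeR adjusted p = 0.911). The genes most like Csf3 in pattern were Lcn2 (r = 0.994), Tmem252 (0.984) and Akap12 (0.981). Lcn2, an iron-scavenging acute-phase protein, is also 1 of the 10 LPS-response genes above.

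Csf1r encodes the receptor for CSF1 and IL-34, the target of PLX5622, and made up 0.530 to 0.959% of all counts in a library. It measured 7709, 8916 and 7367 CPM in shielded mice without LPS and 8960, 9056 and 7183 CPM after LPS. In unshielded mice the values were 6075, 6171 and 5596 CPM without LPS and 5745, 6433 and 5615 CPM after LPS. All 6 unshielded libraries were below all 6 shielded libraries, while libraries with and without LPS overlapped in both arms. Csf1r was 1.42-fold lower without the shield after LPS (log2 -0.50 ± 0.12, edgeR adjusted p = 0.00477), a call that held in all 12 fits that left out 1 library. Without LPS it was 1.34-fold lower (log2 -0.43 ± 0.12, edgeR adjusted p = 0.0372). That call was lost without any 1 of the 6 libraries without LPS, shielded LPS library 2, or unshielded LPS libraries 1 or 3 (-0.48 to -0.34, edgeR adjusted p up to 0.196), and without the libraries of conflicting label (-0.38, edgeR adjusted p = 0.390). It was also lost with RLE scaling (edgeR adjusted p = 0.0618), with no low-count filter (0.0604) and with only the groups compared (0.0503).

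The log2 fold change of Csf1r with LPS was 0.07 ± 0.12 in shielded mice (edgeR adjusted p = 0.607) and -0.00 ± 0.12 in unshielded mice (edgeR adjusted p = 0.981), on the TMM scale that sets the bulk of genes equal between libraries. With library totals as the scale it was -0.28 (edgeR adjusted p = 0.00658) and -0.31 (edgeR adjusted p = 0.00642). On that scale the median over all genes was -0.49 and -0.36, against -0.14 and -0.06 with TMM, so Csf1r lay 0.20 and 0.06 above the median gene. Library totals also moved the calls over all genes to 4042 higher and 9131 lower in shielded mice and 2656 and 6520 in unshielded mice, from 6119 and 6619 and from 4585 and 3543 with TMM. Of the exon bases of Csf1r, 15.1% (873 bases) overlap Hmgxb3 on the opposite strand, and whether the counting used strand was not stated. Group means of Hmgxb3 were 29.6 to 63.4 CPM, far under those of Csf1r. The genes most like Csf1r in pattern were Kbtbd2 (r = 0.972), Sipa1l2 (0.970) and Tbc1d10a (0.969).

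Csf2ra encodes the GM-CSF receptor alpha chain, which gives the receptor its specificity. It measured 229.8, 213.9 and 246 CPM in shielded mice without LPS and 379.7, 303.5 and 244.5 CPM after LPS. Without the shield it measured 330.5, 294.2 and 340.5 CPM without LPS and 419.5, 604.5 and 332.1 CPM after LPS. The LPS groups were spread widely, and groups with and without LPS overlapped in both arms. The log2 fold change with LPS was 0.43 ± 0.20 in shielded mice (edgeR adjusted p = 0.0735) and 0.49 ± 0.20 in unshielded mice (edgeR adjusted p = 0.0643). In fits of only the groups compared, the first was 0.41 (edgeR adjusted p = 0.0448) and the second 0.49 (edgeR adjusted p = 0.0461). With the shielded libraries also paired by replicate number (a block in the fit), the first was 0.40 (edgeR adjusted p = 0.0440), and with a block in the fit of all 4 groups it was 0.41 (edgeR adjusted p = 0.0941). The first also passed on leaving out shielded LPS library 3 (0.60, edgeR adjusted p = 0.0188) or unshielded LPS library 2 (0.0157) or 3 (0.0380), and in DESeq2 (DESeq2 adjusted p = 0.0499). The second also passed without unshielded LPS library 3 (0.67, edgeR adjusted p = 0.0138) and in DESeq2 (DESeq2 adjusted p = 0.0478).

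Csf2ra was the only 1 of the 8 genes called higher without the shield. After LPS the log2 fold change was 0.55 ± 0.20 (edgeR adjusted p = 0.0412), although the groups overlapped. This call was lost in 10 of the 12 fits that left out 1 library (all but those without shielded LPS library 1 or unshielded LPS library 3), at 0.31 to 0.55 with edgeR adjusted p up to 0.166. It was also lost without the libraries of conflicting label (0.53, edgeR adjusted p = 0.0757) and with only the groups compared (0.59, edgeR adjusted p = 0.0850). Without LPS every unshielded library was above every shielded one, and the log2 fold change was 0.48 ± 0.20 (edgeR adjusted p = 0.166). That comparison passed without unshielded LPS library 2 (0.52, edgeR adjusted p = 0.0375) and in a fit of only the groups compared (0.51, edgeR adjusted p = 0.00501).

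Csf2rb encodes the common beta chain, which signals for GM-CSF, interleukin-3 and interleukin-5. It measured 101.2, 97.6 and 87.7 CPM in shielded mice without LPS and 599, 592.5 and 428.5 CPM after LPS. Without the shield the values were 123.9, 110.7 and 125.1 CPM without LPS and 444.6, 634.8 and 515.3 CPM after LPS. The lowest LPS library was more than 3 times the highest library without LPS. LPS raised Csf2rb 5.65-fold in shielded mice (log2 2.50 ± 0.16, edgeR adjusted p = 7.80e-08) and 4.43-fold in unshielded mice (log2 2.15 ± 0.15, edgeR adjusted p = 6.48e-07), calls that held in all 12 fits that left out 1 library. Unshielded against shielded, the log2 fold change was 0.33 ± 0.15 without LPS, with no overlap between the groups (edgeR adjusted p = 0.217), and -0.02 ± 0.15 after LPS (edgeR adjusted p = 0.908). The value without LPS passed with library totals (0.36, edgeR adjusted p = 0.0352) and with only the groups compared (0.35, edgeR adjusted p = 0.0212).

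Csf2rb2 encodes the second beta chain of the mouse. It measured 55.3, 60.5 and 49.7 CPM in shielded mice without LPS and 420.3, 420.2 and 286.9 CPM after LPS. Unshielded mice had 48.3, 50.6 and 51.7 CPM without LPS and 221.2, 322.9 and 238.2 CPM after LPS. As for Csf2rb, all LPS libraries were above all others. LPS raised it 6.81-fold in shielded mice (log2 2.77 ± 0.17, edgeR adjusted p = 8.19e-08) and 5.20-fold in unshielded mice (log2 2.38 ± 0.17, edgeR adjusted p = 6.77e-07), again in all 12 such fits. After LPS it was lower without the shield (log2 -0.53 ± 0.16, edgeR adjusted p = 0.0195), with overlapping groups. This call was lost without shielded LPS library 1 or 2 or unshielded LPS library 1 or 3 (-0.49 to -0.47, edgeR adjusted p 0.0606 to 0.0724) and with only the groups compared (-0.48, edgeR adjusted p = 0.0830). Without LPS the log2 fold change was -0.14 ± 0.16 (edgeR adjusted p = 0.738). Monocyte RNA moved with both beta chain genes: of 10 monocyte markers, 8 rose and 1 fell with LPS in shielded mice and 9 rose and 1 fell in unshielded mice. Of all genes, 32.4% rose and 35.1% fell in shielded mice, and 24.3% and 18.8% in unshielded mice. The summed level of the 10 markers was 110 to 132 CPM without and 661 to 797 CPM with LPS in shielded mice, and 114 to 152 and 418 to 542 CPM in unshielded mice, with none at 0 in a group. Fn1 made up most of the sum in shielded LPS mice, at 446 to 501 CPM, against 98.5 to 146 CPM in unshielded LPS mice. After LPS, 0 of the 10 markers were higher and 1 was lower without the shield, beside 19.1% and 25.6% of all genes. Their median log2 fold change there was 0.31. Ly6c2 rose by 2.14 ± 0.37 and 3.76 ± 0.41 on the log2 scale, while Ccr2, the chemokine receptor of monocytes, fell by 1.57 ± 0.22 and 1.05 ± 0.21 (edgeR adjusted p at most 0.00157). Their part in the beta chain values was not tested.

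The beta chain genes are near copies, so their counts are uncertain where a read matches both. Their coding sequences in the GENCODE annotation of GRCm38 were identical at 95.2% of 2628 aligned bases. Of all stretches of 50 bases in their exons, 892 occurred in both genes, 12.3% of those of Csf2rb and 18.4% of those of Csf2rb2. The first 120 coding bases of each are shown for how few letters tell the genes apart, with the 4 bases that differ in capitals.
Csf2rb: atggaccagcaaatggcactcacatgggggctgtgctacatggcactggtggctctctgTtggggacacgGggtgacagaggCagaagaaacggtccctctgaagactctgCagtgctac
Csf2rb2: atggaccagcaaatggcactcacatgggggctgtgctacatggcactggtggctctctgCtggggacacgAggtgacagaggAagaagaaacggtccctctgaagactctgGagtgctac
The counting rule for reads that match both genes was not stated.

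The share of Csf2rb2 in the counts of the pair separated the arms. It was 35.3, 38.3 and 36.2% in shielded mice without LPS, 41.2, 41.5 and 40.1% in shielded mice after LPS, 28.0, 31.4 and 29.3% in unshielded mice without LPS and 33.2, 33.7 and 31.6% in unshielded mice after LPS. All unshielded libraries were below all shielded ones, and within each arm all LPS libraries were above those without LPS. Exact 95% binomial (Clopper-Pearson) intervals cover counting error only, and the widest, of unshielded library 2 without LPS, ran from 29.8 to 33.0%. The mean share was 7.57 percentage points higher in shielded than in unshielded libraries (38.8 against 31.2%), with the libraries permuted within each treatment. It was 3.82 percentage points higher with LPS than without (36.9 against 33.1%), with the libraries permuted within each arm. Each test gave an exact two-sided permutation p of 0.005 (0.005 after Benjamini-Hochberg adjustment over the 2 tests), the smallest that its 400 arrangements allow. The share and its tests were chosen after the values of both genes were seen. With the groups already fully separated, each test could only return its smallest p, which adds nothing to that separation.

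**Figure D4:**
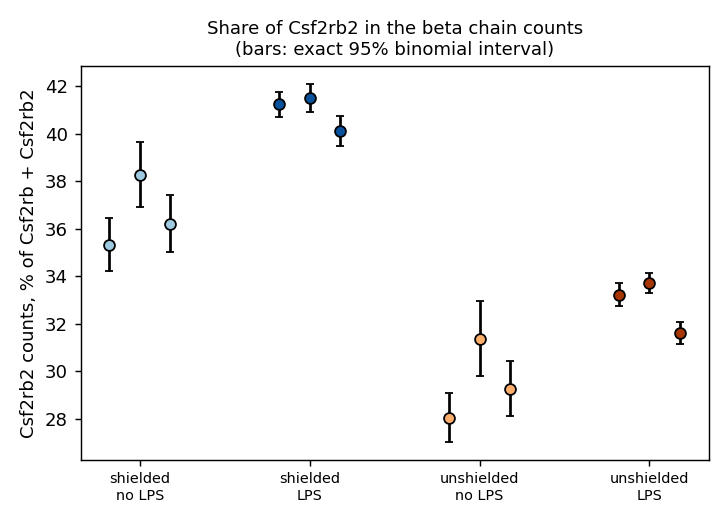
Points are the share of Csf2rb2 in the summed counts of Csf2rb and Csf2rb2 in each of the 12 libraries, in percent, with exact 95% binomial intervals as bars (the axis does not start at 0). Shielded libraries lie between 35.3 and 41.5% and unshielded libraries between 28.0 and 33.7%.

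The Csf2rb2 promoter is shown because the gene rose with LPS in both arms. It is the RefSeq sequence of GRCm38.p6 at chr15:78305672-78305971 on the minus strand, over the same window as for Csf1. Capitals mark, in order, a GAGGAA core read on the opposite strand, the STAT element and a second GAGGAA core on the opposite strand.
Csf2rb2 promoter: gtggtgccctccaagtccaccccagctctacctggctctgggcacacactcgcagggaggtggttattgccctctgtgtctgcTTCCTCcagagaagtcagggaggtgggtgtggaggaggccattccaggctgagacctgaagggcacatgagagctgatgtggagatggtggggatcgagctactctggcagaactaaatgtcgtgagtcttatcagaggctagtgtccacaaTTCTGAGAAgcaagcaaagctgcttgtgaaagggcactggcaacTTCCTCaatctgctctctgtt
The GAGGAA matches start at positions -167 and 29 and the TTCNNNGAA match at -15, and none of them overlaps another. Of the 32851 promoters, 28.3% hold a GAGGAA on either strand and 8.3% a TTCNNNGAA, and the Csf2rb2 promoter held 0 matches to the NF-kB consensus. Of the other receptor genes whose promoter was read, Csf2ra held 2 GAGGAA matches and Csf3r 1.

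Csf3r encodes the G-CSF receptor, best known from neutrophils and their precursors. It measured 446.9, 523.9 and 429.8 CPM in shielded mice without LPS and 449, 388.9 and 324 CPM after LPS. The unshielded libraries measured 268.9, 320.4 and 274.4 CPM without LPS and 259.9, 364 and 251 CPM after LPS. Without LPS all unshielded libraries were below all shielded ones, whereas the LPS groups overlapped. Csf3r was 1.62-fold lower without the shield before LPS (log2 -0.70 ± 0.16, edgeR adjusted p = 0.0124). Among libraries without LPS, leaving out shielded library 2 (-0.61, edgeR adjusted p = 0.0678), unshielded library 1 (-0.65, edgeR adjusted p = 0.0777) or unshielded library 3 (-0.66, edgeR adjusted p = 0.0782) ended the call, as did leaving out the libraries of conflicting label (-0.64, edgeR adjusted p = 0.231). After LPS the log2 fold change was -0.41 ± 0.16 (edgeR adjusted p = 0.0513), and it passed in DESeq2 (-0.42, DESeq2 adjusted p = 0.0421) and with library totals (-0.33, edgeR adjusted p = 0.0417). It also passed without shielded LPS library 3 or unshielded LPS library 2 (-0.58 and -0.57), shielded library 3 without LPS, or unshielded library 1 or 2 without LPS (each -0.45), with edgeR adjusted p of 0.00498 to 0.0496.

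With LPS, the log2 fold change of Csf3r was -0.27 ± 0.16 in shielded mice (edgeR adjusted p = 0.145) and 0.02 ± 0.16 in unshielded mice (edgeR adjusted p = 0.931). In a fit of only the shielded groups the first was -0.28 (edgeR adjusted p = 0.0841), and -0.28 with those libraries paired by replicate number as well (edgeR adjusted p = 0.0472). The block in the fit of all 4 groups gave -0.27 (edgeR adjusted p = 0.0684). With library totals the values were -0.63 (edgeR adjusted p = 0.000794) and -0.29 (edgeR adjusted p = 0.0584), the first 0.14 below and the second 0.07 above the median gene on that scale. Neutrophil markers were present in these libraries. Of 12 such markers, 2 were lower and 0 higher without the shield before LPS, beside 6.85% and 3.98% of all genes. After LPS 0 passed, beside 25.6% lower and 19.1% higher among all genes. With LPS, 2 rose and 1 fell in shielded mice, beside 32.4% and 35.1% of all genes. In unshielded mice 6 rose and 0 fell, beside 24.3% and 18.8%. The 1 that fell was Elane, a protease of neutrophil granules (-3.30 ± 1.22, edgeR adjusted p = 0.0327), with group means of 1.22 and 0.132 CPM. Their summed level was 183 to 411 CPM in shielded and 64.1 to 173 CPM in unshielded mice without LPS, and 321 to 543 and 288 to 1073 CPM after LPS, with none at 0 in a group. S100a8 and S100a9, calcium-binding proteins abundant in neutrophils, had group means of 22.3 to 121 CPM and 30.1 to 161 CPM. Ly6g, a surface protein of neutrophils, lay between 0.205 and 1.68 CPM in all libraries. Of 12 microglial markers, 10 were lower and 0 higher without the shield, both before and after LPS. With LPS, 10 of them fell and 1 rose in shielded mice, and 9 fell and 1 rose in unshielded mice. The shares of all genes beside these counts are those given above. The part of neutrophil or microglial RNA in the Csf3r values was not tested. The genes most like Csf3r in pattern were Senp2 (r = 0.961), Stxbp5 (0.961) and Erf (0.958).

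For the genes not yet given a nearest pattern, the closest were Rab27a (r = 0.991), Anxa3 (0.989) and Fez2 (0.987) for Csf1, and Sirt6 (0.967), Atg2a (0.967) and E4f1 (0.959) for Csf2ra. For Csf2rb they were Siglece (0.997), Ehd1 (0.996) and Tmem87b (0.996), and for Csf2rb2 Wdr26 (0.997), Tgm2 (0.997) and Ncf4 (0.996). Each r is over the same 12 libraries, which share 4 groups, and is a description of the pattern only. Rab27a, a small GTPase of vesicle transport, had group means of 51.8, 113.6, 25.1 and 42.7 CPM in shielded mice without and with LPS and unshielded mice without and with LPS, in the same order as those of Csf1.

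Per kilobase of the longest coding transcript, Csf1r stood first in every group, at 1262 to 1787 mean CPM per kb, and no other gene's range reached it. In shielded mice without LPS the order after it was Csf3r (134), Csf2ra (124), Csf2rb (19.5), Csf1 (16.8), Csf2rb2 (11.6), Il34 (1.67) and Csf3 (0.496 CPM per kb). The ranges of Csf3r and Csf2ra overlapped there, as did those of Csf2rb and Csf1. In shielded mice after LPS, Csf2ra (167 CPM per kb) came second, the ranges of Csf3r (111), Csf2rb (110) and Csf2rb2 (79.3) overlapped in turn, and Il34 was last (0.617). In unshielded mice without LPS, Csf2ra (174 CPM per kb) and then Csf3r (82.7) followed Csf1r, and only the ranges of Il34 and Csf3 overlapped. In unshielded mice after LPS, Csf2ra (244 CPM per kb) was second, the ranges of Csf2rb (108) and Csf3r (83.8) overlapped, and so did those of Csf3 (16.1) and Csf1 (12.8). Csf3 thus moved from last place without LPS to above Il34 in both arms after it.

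The other genes of these pathways were read from 5 lists of genes known to act with the 8 named here. CSF1R signals through adaptors, kinases and phosphatases, of which 17 were tested. With LPS, 8 rose and 3 fell in shielded mice, and 9 rose and 2 fell in unshielded mice, with a median log2 fold change of 0.24 and 0.32. Of all genes, 32.4% rose and 35.1% fell in shielded mice and 24.3% and 18.8% in unshielded mice, with medians of -0.14 and -0.06. Lyn, a Src-family kinase, rose by 1.61 ± 0.12 and 1.23 ± 0.12 on the log2 scale, and Pik3r1, the regulatory subunit of PI3-kinase, by 1.36 ± 0.13 and 1.08 ± 0.13. The adaptor Shc1 rose by 0.60 ± 0.10 and 0.52 ± 0.10. Mapk3 fell by 0.65 ± 0.10 and 0.59 ± 0.10, and Ptpn6, a phosphatase that dampens the receptor, by 0.38 ± 0.11 and 0.57 ± 0.11. Pik3cd, the catalytic subunit of PI3-kinase in leukocytes, fell by 0.33 ± 0.11 in shielded mice and rose by 0.37 ± 0.11 in unshielded mice, and the difference between these effects passed the threshold (0.69 ± 0.15, edgeR adjusted p = 0.0109). The LPS calls of these genes had edgeR adjusted p of at most 0.0161.

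Between the arms, 0 of these 17 signalling genes were higher and 1 was lower without the shield before LPS, beside 3.98% and 6.85% of all genes. The lower gene was Pik3r1 (-0.54 ± 0.13, edgeR adjusted p = 0.0167). After LPS, 3 were higher and 6 were lower, beside 19.1% and 25.6% of all genes. The median was -0.20 in both comparisons, against -0.00 and 0.07 over all genes. The lower genes included Lyn (-0.77 ± 0.12), Plcg2, a phospholipase (-0.69 ± 0.11), and Pik3r1 (-0.82 ± 0.13), all with edgeR adjusted p of at most 0.000302. The higher ones were Pik3cd (0.49 ± 0.11, edgeR adjusted p = 0.00245), the adaptor Gab2 (0.53 ± 0.14, edgeR adjusted p = 0.0106) and Src (0.60 ± 0.18, edgeR adjusted p = 0.0185).

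Of 8 transcription factors known to act on the Csf1r gene, 4 rose and 2 fell with LPS in each arm, where 32.4 and 35.1% of all genes did so in shielded and 24.3 and 18.8% in unshielded mice. Their median log2 fold change was 0.62 and 0.44, against -0.14 and -0.06 over all genes. Cebpb, a factor of myeloid activation, rose by 2.58 ± 0.17 and 2.62 ± 0.17 on the log2 scale in shielded and unshielded mice, and Runx1 by 2.16 ± 0.19 and 1.82 ± 0.18. In the same order of arms, Ets2 rose by 1.37 ± 0.19 and 1.49 ± 0.19, and Spi1, the gene of PU.1, by 0.95 ± 0.13 and 0.58 ± 0.13. Maf fell by 1.37 ± 0.14 and 0.79 ± 0.14. Cebpa fell by 0.79 ± 0.13 in shielded mice, with -0.30 ± 0.13 in unshielded mice (edgeR adjusted p = 0.0749). Irf8, a factor that microglia need, fell by 1.09 ± 0.15 in unshielded mice, with -0.34 ± 0.15 in shielded mice (edgeR adjusted p = 0.0644). The edgeR adjusted p of the changes past the threshold was at most 0.00254, and Irf8 fell further in unshielded than in shielded mice (difference -0.75 ± 0.21, edgeR adjusted p = 0.0357). Without LPS 0 of the 8 differed between the arms past the threshold in edgeR, beside 3.98% higher and 6.85% lower among all genes. After LPS 1 was higher without the shield, Maf (0.81 ± 0.14, edgeR adjusted p = 0.000454), and 2 were lower, Irf8 (-0.86 ± 0.15, edgeR adjusted p = 0.000619) and Spi1 (-0.72 ± 0.13, edgeR adjusted p = 0.000595), beside 19.1% higher and 25.6% lower among all genes.

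Il34 also binds the phosphatase receptor encoded by Ptprz1 and the proteoglycan encoded by Sdc1, and ADAM17 cleaves CSF1R from the cell surface. Adam17 rose with LPS by 1.38 ± 0.13 on the log2 scale in shielded mice (edgeR adjusted p = 1.26e-06) and by 0.81 ± 0.12 in unshielded mice (edgeR adjusted p = 0.000205). After LPS it was lower without the shield (-0.80 ± 0.12, edgeR adjusted p = 0.000240), and the difference of its LPS effects passed the threshold (-0.57 ± 0.17, edgeR adjusted p = 0.0484). Sdc1 rose in unshielded mice (0.89 ± 0.28, edgeR adjusted p = 0.0198) and was higher without the shield after LPS (0.93 ± 0.28, edgeR adjusted p = 0.0167). Ptprz1, which astrocytes and oligodendrocyte precursors express, fell in shielded mice (-1.65 ± 0.47, edgeR adjusted p = 0.00968), beside the fall of neuronal markers and of 8 of 8 oligodendrocyte markers there, while 2 of 9 astrocyte markers rose and 3 fell. Of all genes, 32.4% rose and 35.1% fell there.

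**Figure D5:**
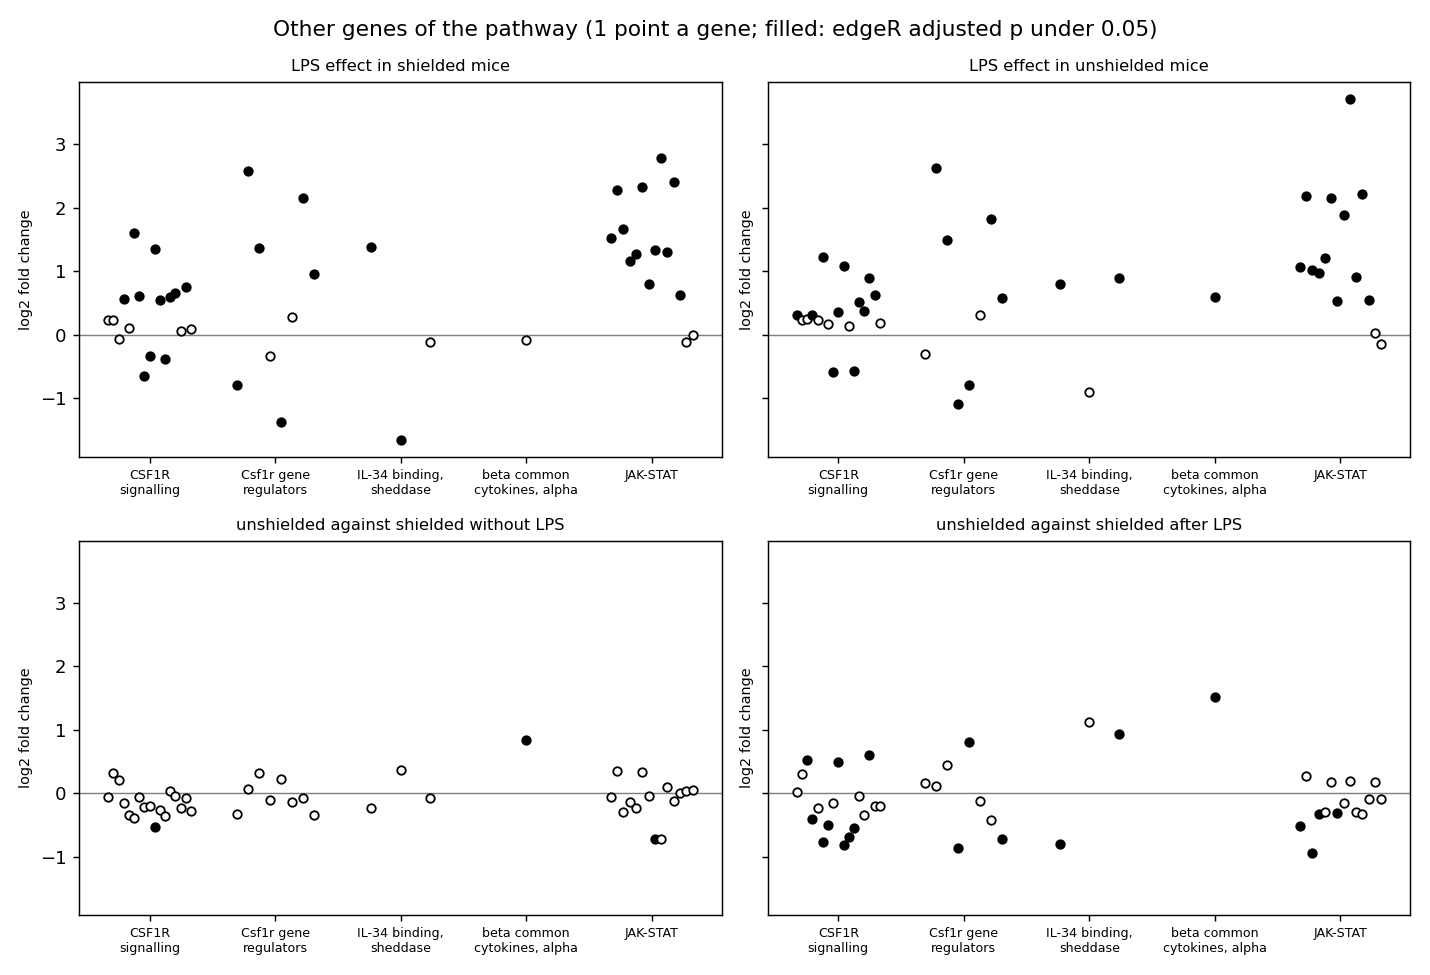
Each point is the log2 fold change of 1 gene of the 5 pathway lists in 1 of 4 comparisons, filled where the edgeR adjusted p is under 0.05. With LPS, 12 of the 14 JAK-STAT genes lie above 0 and are filled in both arms, and without LPS few genes of any list are filled.

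GM-CSF and G-CSF receptors signal through Janus kinases and STAT proteins, and 12 of 14 such genes rose and 0 fell with LPS in each arm (median log2 fold change 1.32 and 1.05). Over all genes 32.4% rose and 35.1% fell in shielded mice and 24.3% and 18.8% in unshielded mice, with medians of -0.14 and -0.06. Stat3, the main STAT of the G-CSF receptor, rose by 2.41 ± 0.16 and 2.21 ± 0.16, and Socs3, which shuts that receptor off, by 2.79 ± 0.23 and 3.71 ± 0.24. Jak1 rose by 1.67 ± 0.13 and 1.02 ± 0.12, the survival gene Bcl2l1 by 1.52 ± 0.12 and 1.07 ± 0.12, and the kinase Pim1 by 2.32 ± 0.17 and 2.16 ± 0.17. The edgeR adjusted p of these changes was at most 3.62e-05, and the effect on Jak1 was smaller in unshielded mice (difference -0.64 ± 0.17, edgeR adjusted p = 0.0299). The exceptions were Stat5b (-0.12 ± 0.08 and 0.03 ± 0.08) and Tyk2 (-0.00 ± 0.12 and -0.14 ± 0.12), which did not pass in either arm. Without LPS 0 were higher and 1 was lower without the shield, beside 3.98% and 6.85% of all genes. The lower gene was Socs1 (-0.73 ± 0.22, edgeR adjusted p = 0.0489). After LPS 0 were higher and 4 were lower, beside 19.1% and 25.6% of all genes, led by Jak1 (-0.94 ± 0.12, edgeR adjusted p = 7.69e-05), Bcl2l1 (-0.51 ± 0.11, edgeR adjusted p = 0.00316) and Ptpn11, the phosphatase SHP2 (-0.31 ± 0.08, edgeR adjusted p = 0.00722).

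The other cytokines that use the common beta chain were scarce. Csf2, the gene of GM-CSF, had at most 7 counts in any library, Il5 at most 3 and its receptor gene Il5ra at most 11, and none of them passed the low-count filter. Il3ra, the alpha chain of the interleukin-3 receptor, was the 1 gene of its list that was tested. It rose with LPS in unshielded mice (0.60 ± 0.14, edgeR adjusted p = 0.00446), with -0.08 ± 0.15 in shielded mice (edgeR adjusted p = 0.642), and the difference between the arms passed the threshold (0.67 ± 0.20, edgeR adjusted p = 0.0458). It was higher without the shield before LPS (0.83 ± 0.14, edgeR adjusted p = 0.00240) and after LPS (1.51 ± 0.15, edgeR adjusted p = 1.12e-05), where its group means were 14.4 ± 2.0 and 5.05 ± 0.34 CPM (SD, n = 3 each).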

How the data were processed

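RNA was linearly amplified before sequencing, per the labels' protocols. The authors deposited read counts per gene; the submitters' processing notes name FastQC, STAR, HTSeq and build mm9, without versions, annotation or strand setting. Whether the libraries of a group came from different animals is not stated; p-values measure the spread between these libraries only, possibly a technical one.

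All 12 libraries were fitted in 1 model with edgeR 4.0.16 in R 4.3.3 (robust quasi-likelihood, two-sided, TMM scaling, filterByExpr with minimum count 10 and total 15), with Benjamini-Hochberg adjustment over 18875 genes and a threshold of 0.05. SE is the absolute log2 fold change over the square root of F, and CPM uses TMM-scaled totals. Within groups, no libraries were copies of one another (chi-square per degree of freedom at least 12.5). Libraries of different groups were not compared in this way. Across genes, deviations from the mean correlated between same-numbered shielded libraries with and without LPS (0.112, 0.194, 0.547). Between same-numbered unshielded libraries the values were -0.115, -0.0943 and 0.0199. The highest value between groups, 0.558, was that of shielded LPS library 1 with unshielded LPS library 2. Shielded LPS library 1 correlated more with shielded library 2 without LPS (0.399) than with library 1 (0.112). Pairing was not stated, so the main fit has no block, and fits with a block are given as alternatives.

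The 8 genes and all lists were chosen with earlier results of these data known. The text names the 8, up to 3 called genes of smallest p per direction, comparison and pathway list, the 3 genes of highest Pearson r of log2 CPM (prior count 2, mean at least 3) per gene, and the first 2 genes of marker lists. Ly6g, Elane, Fn1, Hmgxb3, Stat5b, Tyk2, Csf2, Il5 and Il5ra were added after their values were seen. Promoters of 4 of the 8 were read from the RefSeq table, after entries on 1 chromosome and entries of another length were left out. Whether promoters of the other members were available there was not established. The GENCODE annotation, on another build than mm9, gave only lengths, overlaps and coding sequence. Alternatives included DESeq2 1.42.0. 1 gene that the naming criterion picks from the CSF1R signalling list is not reported here by name.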

Additional observations from a re-analysis of the deposited data

How the results depend on the processing

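Over 824 alternative fold changes of the 8 genes, 698 kept direction and side of the threshold, 53 lost a call, 31 gained 1 and 42 turned sign. The cause of these changes was not tested. The LPS calls of Csf1, Csf2rb and Csf2rb2 in both arms and of Csf3 in shielded mice, and the shield calls of Csf1, were lost only when shielded libraries 2 and 3 without LPS were grouped by their treatment field, which puts libraries without the LPS response into the LPS group; Csf3 in unshielded mice was lost there too and with a block.

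Grouped by that field, the count of genes past the threshold was 0 for LPS in shielded mice (5 as reported), 0 for LPS in unshielded mice (4), 0 for the shield without LPS (3) and 1 for the shield after LPS (4). Log2 fold changes that turned sign under it were -0.0076 for Csf3r with LPS in unshielded mice, 0.51 for Csf2rb, 0.023 for Csf2rb2, 0.58 for Csf3 and -0.12 for Il34 for the shield after LPS, and 0.19 for Csf1, 0.26 for Csf2rb, 0.16 for Csf2rb2, 0.20 for Csf3 and -0.72 for Il34 for the difference of LPS effects. With these libraries left out, the count for the shield without LPS was 1.

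With only the groups compared, the count for the shield after LPS was 2. A replicate block in those groups gave 5 genes for the shield without LPS and 2 after LPS, and Csf3 in unshielded mice was at 4.43 (edgeR adjusted p = 0.0821). For LPS in shielded mice, a block with only the groups compared gave 7 genes, against 6 without it. In the fit of all 4 groups the count was 5 with or without it. With library totals, Csf1r was at -0.28 with LPS in shielded mice, Csf3r at -0.29 in unshielded mice and Csf2rb at 0.060 for the shield after LPS.

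Values near 0 also turned. Csf1r with LPS in unshielded mice was 0.040 without a low-count filter, 0.0050 with only the groups compared and 0.0046 with the block there, and its difference of LPS effects was 0.0087 without the filter. For the shield after LPS, Csf2rb was 0.024 without the filter, 0.024 with only the groups compared and 0.026 with the block, and Csf3 was 0.057 with a replicate block in all 4 groups and 0.029 in 2.

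Leaving out 1 library at a time, counts ran from 1 to 4 for the shield without LPS, 2 to 5 after LPS and 0 to 2 for the difference of LPS effects. Signs turned for Csf1r (-0.078 to 0.036) and Csf3r (-0.15 to 0.12) with LPS in unshielded mice, for Csf3 (-1.59 to 1.60) and Il34 (-0.072 to 0.60) for the shield without LPS, for Csf2rb (-0.22 to 0.045) and Csf3 (-0.35 to 0.24) for the shield after LPS, and for the difference of LPS effects of Csf2ra (-0.21 to 0.24) and Csf3 (-1.74 to 1.45). Depth limits Il34 and Csf3 most, at 20 and 7 counts in their lowest libraries.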
